A study of Rattus norvegicus with 127 samples.

Results

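The pro-inflammatory cytokine genes Il1b, Il6, Tnf, Il12b and Il23a were followed through 18 groups of the rat pubocaudalis, a muscle of the pelvic floor. They are 5 of the 134 genes of a custom nCounter panel, in which barcoded probes count RNA molecules, and they were taken by name. The study asked how this muscle responds to a simulated birth injury (SBI) and to SKM, a hydrogel derived from skeletal muscle extracellular matrix. All samples came from Sprague Dawley rats. Their age and the length of the delay before a delayed injection are not stated. Nor is it stated whether 1 animal gave 1 sample, and the p-values measure only the spread between samples, part of which may be technical. Injury without injection was sampled at day 1 (3 samples), day 3 (8), day 7 (6), day 10 (3), day 31 (6), day 35 (6) and day 84 (6), with 3 uninjured samples as the baseline. An injection right after the injury was sampled at day 3 (9 SKM and 9 saline samples) and day 7 (8 and 9). A delayed injection was sampled at day 3 (9 SKM and 9 saline samples), day 7 (9 and 10) and week 8 (6 and 5). The injected groups carry the injury as well, and SKM was set against saline, the injected control. At SBI day 3 a pair of deposited samples held the same counts for all 134 genes, as did 2 pairs at SBI day 7. Each pair was counted as 1 sample, since its members differed by less than sampling noise, which left 124 of 127.

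Recovered totals ran from 366294 to 1824478 counts per sample. The tissue label was met by its markers: 9 of 13 adult muscle fibre genes were on the panel, none was at 0 in a whole group, and their summed normalised signal ran from 147246 to 1781010. SBI day 84 and the week 8 groups stood apart, with group means of the panel median between 8.45 and 8.51 (log2) against 9.51 to 10.95 in the other groups. Each comparison is therefore given on the deposited scale and, where it differs, after each sample was centred on its own panel median. The value table carries no gene names. Names were assigned in alphabetical order and checked against the authors' deposited fold changes. The 5 rows differed from these by a median of 0.0057 to 0.0086 (log2), and the next best row by at least 0.1317. The authors' columns of SBI days 3 and 7 were left out of this check. For Il1b these gave 5.22 at day 3, against a log2 ratio of group means of 6.53, and 6.6 at day 7, against 6.34.

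Interleukin 1 beta, interleukin 6 and tumour necrosis factor are secreted proteins of the early inflammatory response, made largely by macrophages and other leukocytes, with interleukin 6 also made by muscle fibres and fibroblasts. Damage signals sensed through Toll-like receptors and MyD88 activate the transcription factor NF-kappaB, which induces their genes. Il12b encodes the p40 subunit that interleukins 12 and 23 share, and Il23a encodes p19, which pairs with p40 to form interleukin 23; both heterodimers come mainly from dendritic cells and macrophages and act on T cells and natural killer cells. In injured muscle, inflammatory macrophages clear debris before regeneration proceeds.

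The start regions of Il1b, Il6 and Tnf are shown because these 3 genes passed the test against uninjured muscle at day 1. RefSeq (rat build GRCr8) gave start regions for 4 of the 5 genes, Il12b being the one not matched. The 250 bases before the annotated start are printed 5′ to 3′ on the gene's strand, chr3:137036582-137036831 (minus strand) for Il1b, chr4:5894576-5894825 (minus strand) for Il6 and chr20:3626435-3626684 (plus strand) for Tnf. Capitals mark matches, on either strand, to the motifs searched: NF-kappaB (a 10-base consensus), AP-1 (TGANTCA), C/EBP (TTGCNNAA), CRE (TGACGTCA) and the TATA box (TATAAA).
Il1b: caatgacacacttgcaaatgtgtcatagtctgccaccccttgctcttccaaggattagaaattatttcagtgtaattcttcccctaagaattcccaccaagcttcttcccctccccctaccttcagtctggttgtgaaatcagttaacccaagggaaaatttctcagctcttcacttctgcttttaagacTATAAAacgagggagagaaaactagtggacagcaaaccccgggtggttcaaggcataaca
Il6: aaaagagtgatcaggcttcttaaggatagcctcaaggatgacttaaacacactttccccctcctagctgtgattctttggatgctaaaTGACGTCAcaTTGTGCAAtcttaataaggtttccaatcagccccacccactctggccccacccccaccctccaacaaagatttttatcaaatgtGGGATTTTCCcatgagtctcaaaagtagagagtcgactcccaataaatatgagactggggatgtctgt
Tnf: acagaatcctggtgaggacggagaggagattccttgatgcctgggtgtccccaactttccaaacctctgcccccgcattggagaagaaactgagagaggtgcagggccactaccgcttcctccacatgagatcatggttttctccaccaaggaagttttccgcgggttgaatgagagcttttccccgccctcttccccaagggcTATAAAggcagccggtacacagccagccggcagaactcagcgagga
Il6 held an NF-kappaB match at positions -68 to -59 from the start, a CRE match at -162 to -155 and a C/EBP match on the other strand at -152 to -145, and none of the 3 overlapped. Il1b held a TATA box at -60 to -55 and Tnf held one at -46 to -41. The window of Il23a held none of the 5 motifs. Over 33469 rat start regions of the same length, 6.3% held the NF-kappaB consensus, 6.3% AP-1, 9.2% C/EBP, 1.6% CRE and 12.9% the TATA box. A match here describes letters in a window and not a bound site.

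The 5 genes were low on this panel and varied widely between samples of a group. Over 124 samples, Il1b had a median recovered count of 56.5 (0 to 11665), Il6 of 22 (0 to 2297), Tnf of 16 (0 to 314), Il23a of 15 (0 to 407) and Il12b of 14 (0 to 139). Counts under 20 made up 38 of 124 samples for Il1b, 55 for Il6, 67 for Tnf, 72 for Il12b and 78 for Il23a, and such counts carry a large relative counting error. A sample at 0 counts, which allows up to 3 counts, is listed at 0.1. The pooled SD within groups was 2.03 for Il1b, 1.19 for Il6, 1.48 for Tnf, 1.55 for Il12b and 1.38 for Il23a on the log2(value + 1) scale, against a panel median of 0.58, which placed Il1b 5th from the largest of 134 genes.

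In order of mean level, Il1b stood highest in saline injected immediately, day 3 (10.69, mean log2), then at SBI day 1 (10.04), and lowest at SBI day 84 (1.53). Il6 and Il23a also stood highest in saline injected immediately, day 3 (9.37 and 6.72), Tnf at SBI day 1 (6.94) and Il12b in SKM injected immediately, day 3 (5.58). The lowest groups were SBI day 31 for Il6 (3.28), saline at week 8 for Tnf (0.92) and Il23a (1.62), and SBI day 35 for Il12b (1.85). Of the 17 pairs of neighbouring groups, none was free of overlap for any of the 5 genes, and 1 pair for Il23a lay further apart than the larger SD of its groups, delayed saline at day 7 (3.80 ± 0.65, n = 10) above delayed SKM at week 8 (1.68 ± 1.58, n = 6). After centring, SBI day 1 stood highest for Il1b, Tnf and Il23a, saline injected immediately at day 3 for Il6, and SBI day 7 for Il12b.

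**Figure D1:**
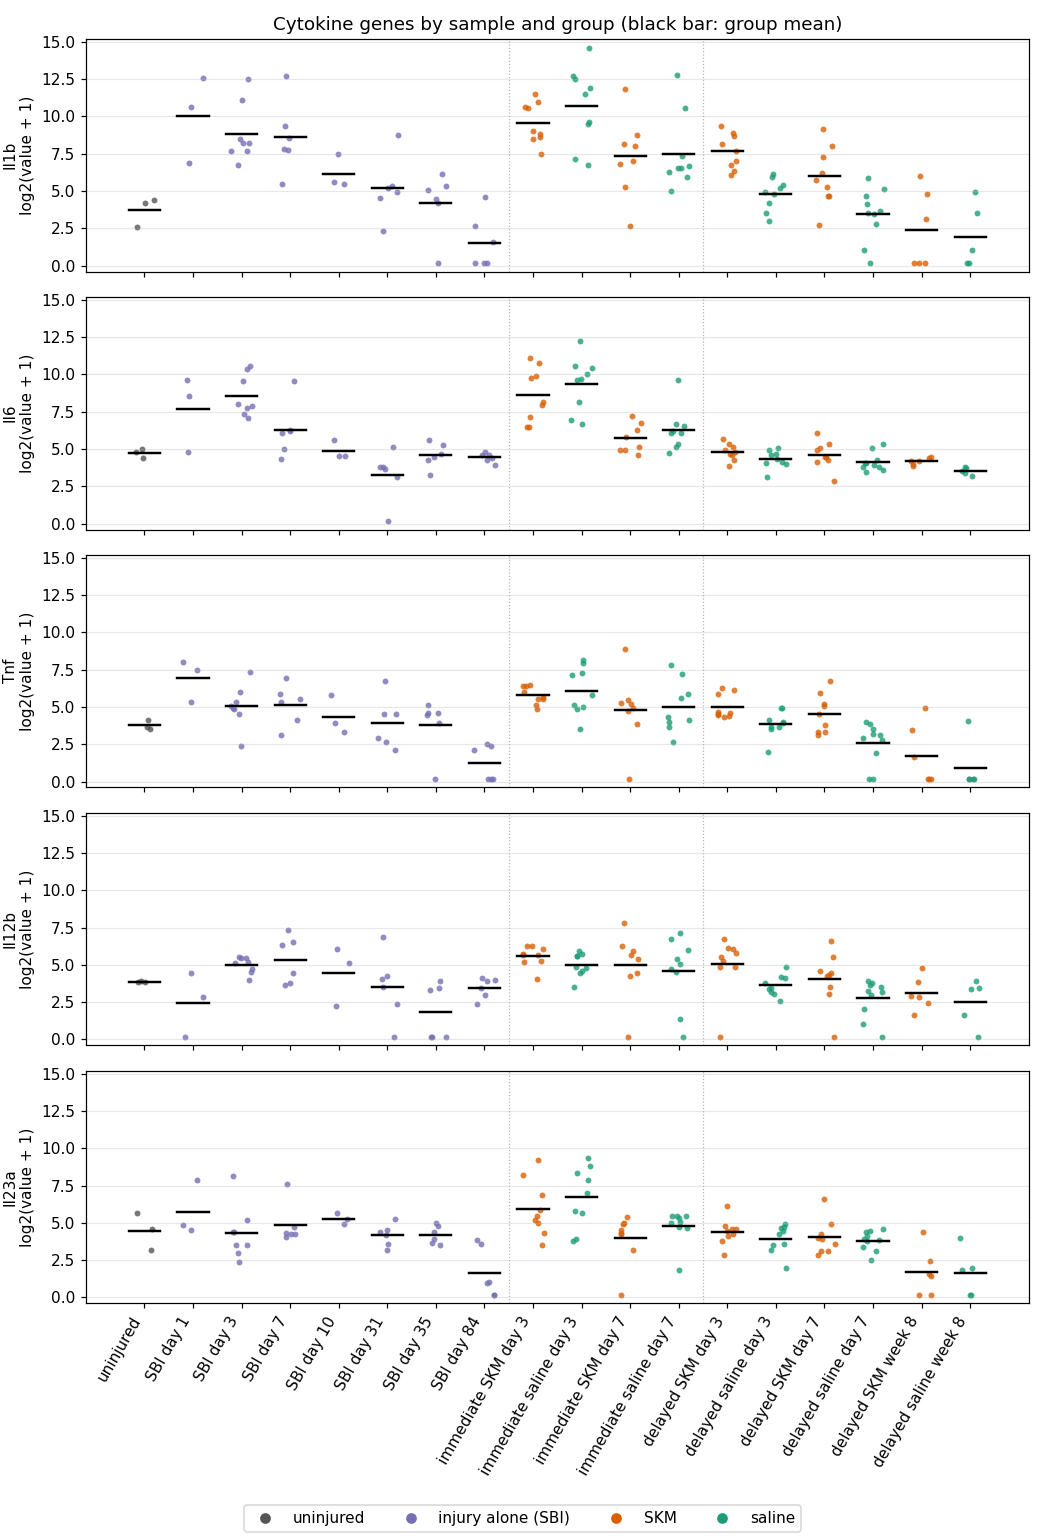
Each point is 1 sample of the deposited scale as log2(value + 1), in 5 panels for the 5 genes; groups run along the x axis and black bars are group means. Il1b spans the widest range, up to 24729 in 1 saline sample at day 3 after immediate injection, and points at the bottom are samples with 0 counts.

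Injury alone was set against uninjured muscle to ask which of the cytokine genes responded and for how long. Il1b rose at days 1, 3 and 7, Il6 at days 1 and 3 and Tnf at day 1, while Il12b and Il23a did not pass the test at any of these days. In bulk muscle, more cells that express a gene and more RNA per cell cannot be told apart.

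For Il1b, which encodes interleukin 1 beta, the normalised signal was 6125, 117 and 1612 at SBI day 1, against 17.3, 20.3 and 4.95 in uninjured muscle. At day 3 it had a median of 295 (107 to 5920, n = 8) and at day 7 a median of 298 (44.4 to 6781, n = 6). No injured sample of days 1, 3 or 7 fell within the uninjured range, a separation seen upward in 20.1%, 32.1% and 13.4% of the panel at these days, and the injured samples of each day spread widely. The log2 difference from uninjured muscle was 6.32 ± 1.65 at day 1 (SE of the limma fit, adjusted p = 0.000584), 5.11 ± 1.36 at day 3 (0.000569) and 4.89 ± 1.43 at day 7 (0.00335). With precision weights taken from the recovered counts (voom), the adjusted p was 0.0992 at day 3 and 0.137 at day 7. With only the compared groups in the fit it was 0.0546 at day 7.

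Tnf, which encodes tumour necrosis factor, had a normalised signal of 254, 40 and 177 at SBI day 1, against 10.6, 16.3 and 11.5 in uninjured muscle. All 3 injured samples lay above the uninjured ones, as in 20.1% of the panel, with a log2 difference of 3.18 ± 1.19 (limma, adjusted p = 0.0155). The call rested on few samples: the adjusted p was 0.0848 without SBI day 1 replicate 1 and 0.0552 without replicate 3, and 0.0596 with a pseudocount of 0.1. At day 3 Tnf had a median of 30.4 (4.28 to 158) and at day 7 a median of 41.5 (7.61 to 122). These groups overlapped the uninjured samples, and the log2 differences of 1.28 ± 0.99 and 1.38 ± 1.03 did not pass (limma, adjusted p = 0.231 and 0.24).

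Il6, which encodes interleukin 6, had a normalised signal of 787, 26.2 and 383 at SBI day 1, against 19.9, 30.5 and 26.4 in uninjured muscle. Replicate 2 of day 1 stayed within the uninjured range; it was the lowest of the 3 for all 5 genes. The log2 difference was 2.94 ± 0.96 (limma, adjusted p = 0.00562), 1.96 without replicate 1 (0.108), and 0.0902 was the adjusted p with only the compared groups in the fit. At day 3 every injured sample exceeded every uninjured one, as in 32.1% of the panel, with a median of 247 (132 to 1523). The log2 difference was 3.85 ± 0.80 (limma, adjusted p = 1.3e-05). At day 7 the median was 69.8 (19.2 to 752) and the log2 difference of 1.53 ± 0.84 did not pass (limma, adjusted p = 0.109), but it did without SBI day 7 replicate 3 (1.91, adjusted p = 0.0475).

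The genes of the interleukin 12 and 23 subunits did not pass at these days. Il12b had 20.7, 0.1 and 6.19 at SBI day 1, against 13.3, 14.2 and 13.2 in uninjured muscle, a log2 difference of -1.39 ± 1.26 (limma, adjusted p = 0.317). At day 3 all 8 injured samples lay above the uninjured ones (14.8 to 45.8, median 34.7), as in 32.1% of the panel. The log2 difference of 1.13 ± 1.04 did not pass in the limma fit over all groups (adjusted p = 0.317). It passed with only the compared groups in the fit (0.011). The uninjured values rest on 7 to 10 counts each. At day 7 Il12b ran from 11.8 to 161 (log2 difference 1.49 ± 1.09, limma, adjusted p = 0.229). Il23a had 232, 22.1 and 28.2 at SBI day 1, against 22.6, 48.8 and 8.25 in uninjured muscle, and its log2 differences of 1.28 ± 1.11 at day 1, -0.16 ± 0.92 at day 3 and 0.38 ± 0.96 at day 7 did not pass (limma, adjusted p = 0.298, 0.894 and 0.718). For Il23a at day 3, the authors' deposited table gave a log2 fold change of -0.72, while the log2 ratio of the means of all deposited samples was 0.82; 1 sample, replicate 9, had a signal of 281 and the others 4.28 to 35.4.

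Counted together, 3 of 5 genes rose at day 1, 2 at day 3 and 1 at day 7, and none fell. Over the whole panel, 21.6% of the 134 genes rose at day 1 (64.9% changed in either direction), 38.8% at day 3 (73.1%) and 29.9% at day 7 (56.7%). The median log2 difference of the 5 genes was 2.94 at day 1, 1.28 at day 3 and 1.49 at day 7, against panel medians of -0.66, 0.02 and 0.25. The moderated F test over the 7 injury days passed for all 5 genes, with adjusted p from 8.21e-13 for Il6 to 0.00128 for Il12b, as it did for 98.5% of the panel.

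**Figure D2:**
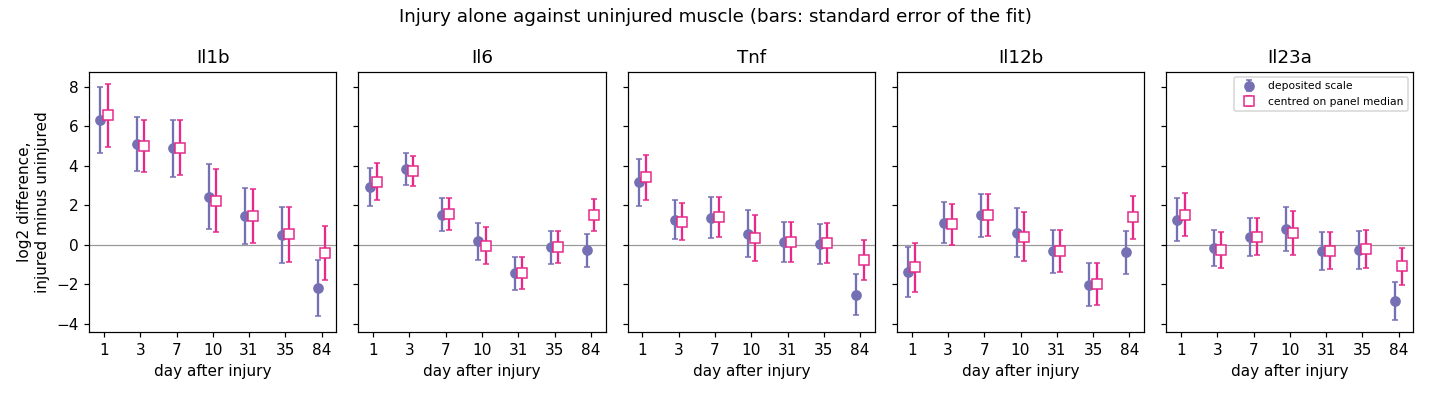
Log2 difference of each injury day from uninjured muscle for the 5 genes, with SE of the fit; filled circles are the deposited scale and open squares are values centred on each sample's panel median. Il1b stands at 6.32, 5.11 and 4.89 on days 1, 3 and 7, and the scales part at day 84, where the deposited differences of Tnf and Il23a are -2.53 and -2.85 and the centred ones -0.76 and -1.08.

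Other genes of the pathway moved in the same comparisons. Of 5 further inflammatory mediators on the panel, 4 rose at day 1, among them the monocyte chemokine Ccl2 (log2 difference 6.57, limma, adjusted p = 1.02e-08) and Nos2, the inducible nitric oxide synthase (5.09, 0.00854); 4 rose at day 3 and 2 at day 7. Of 6 genes of sensing and signalling, 2 rose at each of days 1, 3 and 7; 1 fell, on a row whose name by order was not borne out by its values. Myd88, the adaptor of Toll-like and interleukin 1 receptors, rose by 2.04, 2.02 and 1.19 (log2; limma, adjusted p = 1.66e-05, 3.32e-07 and 0.00499). The tumour necrosis factor receptor gene Tnfrsf1a, 1 of 13 listed receptors and antagonists on the panel, rose by 1.03 at day 1 and 1.10 at day 3 (log2; limma, adjusted p = 0.00107 and 2.63e-05). Of 5 anti-inflammatory and type 2 cytokine genes, 3 rose at day 1, 3 at day 3 and 2 at day 7, with Tgfb1 at 1.81, 2.19 and 1.66 (log2; limma, adjusted p = 0.000533, 6.06e-07 and 0.000544).

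Markers of other cell types moved too, but not every list at each day. Of 3 macrophage genes, 2, 3 and 2 rose at days 1, 3 and 7, and of 2 neutrophil genes 1, 1 and 0. Of 3 lymphocyte genes, 2, 1 and 1 fell, and of 9 muscle fibre genes 6, 8 and 4. The summed signal of 3 macrophage genes (Adgre1, Arg1 and Ccr2, of 12 listed) was 1926 to 7420 at SBI day 1, 2085 to 14581 at day 3 and 1383 to 5868 at day 7, against 510 to 1069 in uninjured muscle. That of 2 neutrophil genes (Cxcr2 and Mmp8, of 9 listed) was 137 to 1716 at day 1, 0.2 to 1398 at day 3 and 21.2 to 885 at day 7, against 30.5 to 43.8. The 3 lymphocyte genes (Foxp3, Gata3 and Tbx21, of 8 listed) summed to 45.9 to 71.9 at day 1, 30.8 to 123 at day 3 and 118 to 497 at day 7, against 400 to 492, and the muscle fibre genes to 356750 to 774574, 228266 to 899590 and 218533 to 1781010, against 1562632 to 1650206. No marker was at 0 in a whole group, none of 5 listed dendritic cell genes was on the panel, and the part of these cells in the cytokine values was not tested.

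After day 7 none of the genes stood above uninjured muscle by the test. Il1b was 42.6, 46.9 and 176 at SBI day 10, still above every uninjured sample, as were 29.1% of the panel's genes, with a log2 difference of 2.44 ± 1.65 that did not pass (limma, adjusted p = 0.291). It had a median of 32.8 at day 31 (3.92 to 430) and 26.4 at day 35 (0.1 to 69.4), overlapping the uninjured samples at both days. None of the 5 genes passed at days 10, 31 or 35 in limma, and none at an unadjusted p under 0.05 or with voom; the panel had 8.96%, 0% and 0% of its genes called. A fit with weights that count variable samples less (array weights) called Il6 lower at day 31 (-1.85, adjusted p = 0.0358). Replicate 1 of day 31 was the highest sample of its group for Il1b (430), Tnf (107), Il12b (117) and Il6 (34.5).

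At SBI day 84, Tnf was at or below 4.8 in all 6 samples, 3 of them at 0 counts, against 10.6 to 16.3 in uninjured muscle, and Il23a ran from 0.1 to 13.4, against 8.25 to 48.8. On the deposited scale both fell, Tnf by 2.53 ± 1.03 and Il23a by 2.85 ± 0.96 on the log2 scale (limma, adjusted p = 0.0211 and 0.00568), at a day when 80.6% of the panel was called lower, 79.9% lay below every uninjured sample and the panel's median log2 difference was -1.72. After centring the log2 differences were -0.76 ± 1.00 and -1.08 ± 0.94 and neither passed (adjusted p = 0.886 and 0.656), with 1.49% of the panel called; with a pseudocount of 10 the adjusted p was 0.191 and 0.0766. Without uninjured replicate 2 the adjusted p on the deposited scale was 0.0632 for Tnf and 0.0546 for Il23a. Il6 had 14.3 to 26.6 at day 84, against 19.9 to 30.5, so its difference was -0.28 ± 0.84 on the deposited scale and 1.49 ± 0.81 after centring (limma, adjusted p = 0.747 and 0.385).

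Successive injury days were compared to find when each gene changed. Between day 3 and day 1, Il12b rose by 2.52 ± 1.04 on the log2 scale (limma, adjusted p = 0.0488, with 30.6% of the panel called higher). This call was lost after centring (2.17, adjusted p = 0.0895, with 25.4% of the panel called higher), with array weights (1.72, 0.103) and in 8 of 11 fits that left out 1 sample (without day 1 replicates 2 and 3 and without day 3 replicates 1, 3, 5, 8 and 9 or the merged 6 and 7), where the adjusted p ran from 0.0512 to 0.457. It was also lost with pseudocounts of 10 and 0.1 (0.0744 and 0.0557), with a trend of variance on level (0.05) and with voom (0.0793). Tnf had a log2 difference of -1.89 ± 0.99 (adjusted p = 0.14), and with voom -1.94 (0.00666). Il6 was lower at day 7 than at day 3, with a median of 69.8 at day 7 against 247 at day 3 and a log2 difference of -2.33 ± 0.64 (limma, adjusted p = 0.00302, with 15.7% of the panel called lower). Without any 1 of 14 samples the adjusted p was at most 0.0219, and it was 0.0849 with only the compared groups in the fit. Il1b did not differ by more than its error between these days (-0.22 ± 1.09, 95% interval -2.37 to 1.94).

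Between day 31 and day 7, Il6 fell by 2.96 ± 0.68 (log2; limma, adjusted p = 0.000388) and Il1b by 3.44 ± 1.16 (0.0157), with 19.4% of the panel called lower. Il6 had 0.1 to 34.5 at day 31 against 19.2 to 752 at day 7, and Il1b had 3.92 to 430 against 44.4 to 6781, so both pairs of groups overlapped. With only the compared groups in the fit the adjusted p was 0.081 for Il6 and 0.0899 for Il1b, and with voom it was 0.0547 for Il1b. The call of Il1b was lost without day 7 replicate 1 (-2.61, adjusted p = 0.107) and without day 31 replicate 5 (-2.86, 0.0659). Il12b missed the threshold (-1.81 ± 0.89, adjusted p = 0.0841) and passed it without day 31 replicate 1 (-2.48, 0.0187), day 7 replicate 3 (-2.15, 0.043) or the merged day 7 replicates 5 and 7 (-2.13, 0.0444). None of the 5 genes passed between day 10 and day 7 in limma, at an unadjusted p under 0.05 or with voom, when 5.22% of the panel was called.

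Immediate injection put SKM beside saline at days 3 and 7. At day 3, Il1b had a median of 525 (177 to 2864) in SKM samples, against 2937 (105 to 24729) in saline samples. Il6 had a median of 285 (86.7 to 2207) with SKM and 806 (102 to 4869) with saline, Il23a 43.2 (10.4 to 580) and 126 (12.6 to 653), and Tnf 49.6 (28.1 to 85.5) and 54 (10.4 to 284). Il12b alone had the higher median with SKM, 49.9 (15.7 to 77.4), against 28.1 (10.6 to 59.7). The groups overlapped for every one of the 5 genes, and the log2 differences ran from -1.13 ± 0.95 for Il1b (95% interval -3.01 to 0.76) to 0.57 ± 0.73 for Il12b (-0.86 to 2.01). None passed in limma (adjusted p from 0.972 to 0.989), none at an unadjusted p under 0.05 and none with voom, while array weights called Il6 lower (-1.17, adjusted p = 0.0432); 0% of the panel was called. For Il1b the authors' deposited table gave -2.21, the log2 ratio of the group means, in which the sample at 24729 weighs most.

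At day 7 after immediate injection the log2 differences of SKM from saline ran from -0.83 ± 0.66 for Il23a to 0.42 ± 0.75 for Il12b, and none of the 5 passed in limma, at an unadjusted p under 0.05 or with voom (0% of the panel called). Il1b had a median of 193 (5.28 to 3722) with SKM and 91.5 (30.9 to 6930) with saline, and its 95% interval of the log2 difference, -2.13 to 1.75, allows changes of several fold in either direction.

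Within each injected arm, 3 of the 5 genes fell between day 7 and day 3. With SKM, Il6 had a median of 43.9 at day 7 (23.3 to 149) against 285 at day 3 (86.7 to 2207), a log2 difference of -2.92 ± 0.57 (limma, adjusted p = 1.42e-05). With saline it had 67 (26 to 776) against 806 (102 to 4869), a log2 difference of -3.10 ± 0.56 (2.5e-06). Il23a fell by 2.00 ± 0.66 with SKM (limma, adjusted p = 0.00891; 0.061 without day 7 replicate 6, which was at 0 counts) and by 1.93 ± 0.64 with saline (0.00751). Il1b fell by 3.17 ± 0.95 with saline (limma, adjusted p = 0.00333), and by 2.24 ± 0.98 with SKM (0.0479). The SKM call of Il1b was lost after centring (adjusted p = 0.114, with 17.9% of the panel called lower) and in 9 of 17 fits that left out 1 sample (day 3 replicates 2, 3, 6, 7 and 8, day 7 replicates 1, 2, 3 and 4; adjusted p 0.051 to 0.19). With a pseudocount of 0.1 it had an adjusted p of 0.085, and with only the compared groups in the fit 0.0646, when Il23a with SKM had 0.0531. Of the panel, 38.8% was called lower with SKM and 39.6% with saline. The neutrophil genes summed to 9.83 to 337 at day 7 against 64.5 to 871 at day 3 with SKM, and to 7.91 to 1213 against 55 to 3829 with saline. Of 3 macrophage genes, 2 fell in each arm, and of 9 muscle fibre genes, 6 rose in each; the part of these cells was not tested.

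Set against injury alone on the same day, 1 of the 5 genes was called at day 3 of immediate injection on the deposited scale, and none after centring. The share of the panel called higher on the deposited scale was larger in both arms. Il23a had a median of 43.2 with SKM (10.4 to 580) and 126 with saline (12.6 to 653), against 15 at SBI day 3 (4.28 to 281). Its log2 difference from SBI day 3 was 1.64 ± 0.66 with SKM (limma, adjusted p = 0.0398) and 2.41 ± 0.66 with saline (0.00178), with 37.3% and 44.8% of the panel called higher. Both comparisons share the SBI day 3 samples. After centring the differences were 1.12 (adjusted p = 0.989) and 1.79 (0.446), where 0% and 0.746% of the panel were called. The SKM call was also lost in 8 of 17 fits that left out 1 sample (SBI day 3 replicates 1, 2, 4, 5 and 8, SKM replicates 2, 4 and 8; adjusted p 0.0543 to 0.113), with a pseudocount of 0.1 (0.0783) and with only the compared groups in the fit (0.126). Il1b with saline missed the threshold (1.85 ± 0.98, adjusted p = 0.112) and passed it without SBI day 3 replicate 9 (2.38, 0.0395) or saline replicate 2 (2.35, 0.0479), with voom (1.77, 0.021) and with array weights (3.10, 0.000228). Il6 with saline did not pass on the deposited scale or after centring (centred 0.18, limma, adjusted p = 0.974). Array weights called Il6 higher (1.70, adjusted p = 0.00106). At day 7 none of the 5 genes passed in either arm in limma, at an unadjusted p under 0.05 or with voom, when 0% of the panel was called with SKM and 2.24% with saline.

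After delayed injection, Il1b was higher with SKM than with saline at days 3 and 7 and Tnf at day 7, and Il6, Il12b and Il23a did not pass. At day 3, Il1b had a median of 201 in SKM samples (67.2 to 662), against 29.5 in saline samples (6.98 to 68). The groups overlapped only between 67.2 and 68, and the log2 difference was 2.88 ± 0.95 (limma, adjusted p = 0.0447; centred 2.88, 0.0281). Tnf had a median of 23.2 (19.3 to 75) with SKM and 14 (2.95 to 30) with saline, a log2 difference of 1.17 ± 0.69 that did not pass over all groups (adjusted p = 0.229), but did with only the compared groups in the fit (0.0248) and with array weights (0.0436). Il12b had a median of 44.2 (0.1 to 105) with SKM and 9.73 (4.92 to 27.9) with saline. For Il12b, 8 of 9 SKM samples lay above every saline sample and replicate 5 was at 0 counts, with a log2 difference of 1.42 ± 0.73 (limma, adjusted p = 0.165), which passed with a pseudocount of 10 (1.17, 0.049) and with array weights (1.63, 0.0147). Il6 and Il23a overlapped between the arms, with log2 differences of 0.48 ± 0.56 and 0.46 ± 0.64. Of the panel, 6.72% was called higher, and 11.2% after centring.

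At day 7 after delayed injection Il1b and Tnf rose with SKM on the deposited scale, where 14.9% of the panel was called higher. Il1b had a median of 52.4 (5.6 to 562) with SKM and 10.9 (0.1 to 58.7) with saline, a log2 difference of 2.53 ± 0.93 (limma, adjusted p = 0.049). Tnf had a median of 22.4 (7.52 to 106) with SKM and 7.03 (0.1 to 14.7) with saline, a log2 difference of 2.00 ± 0.67 (0.0358). Both groups overlapped for both genes, and after centring the differences were 2.28 (adjusted p = 0.0684) and 1.75 (0.0524), with 4.48% of the panel called higher. Il12b had a median of 19.2 (0.1 to 97.4) with SKM and 8.36 (0.1 to 14.5) with saline (1.29 ± 0.71, limma, adjusted p = 0.181).

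These 3 calls depended on single replicate numbers and on the test. When 1 replicate number at a time was left out of all 4 delayed groups of days 3 and 7, Il1b at day 3 lost its call without numbers 1, 2, 4, 6, 7, 8 and 9 (adjusted p 0.0534 to 0.156). Il1b at day 7 lost it without numbers 2, 3, 4, 5, 8 and 9 (0.0656 to 0.194), and Tnf at day 7 without numbers 2, 3, 5, 8 and 9 (0.0543 to 0.211), while the log2 differences stayed between 2.51 and 3.22, 2.01 and 2.88, and 1.46 and 2.30. With voom, Il1b had an adjusted p of 0.166 at day 3 and 0.247 at day 7, and with a pseudocount of 0.1 it had 0.0987 and 0.0541. At day 7 the adjusted p was 0.0862 for Il1b and 0.0687 for Tnf with a pseudocount of 10, and 0.0562 for Il1b with only the compared groups in the fit.

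At week 8 none of the 5 genes passed between SKM and saline in limma, at an unadjusted p under 0.05 or with voom, nor did any gene of the panel (0%). Il6 was 13.4 to 20.8 with SKM (n = 6), against 8.01 to 12.6 with saline (n = 5), so the groups did not overlap. It was the only gene of the panel that lay higher without overlap (0.746%). The log2 difference was 0.66 ± 0.72 (limma, adjusted p = 0.998). This error draws on the spread of Il6 in all 18 groups (pooled SD 1.19), while its SD was 0.22 with SKM and 0.25 with saline. The p-value thus does not measure the spread of these 2 groups alone. With only the compared groups in the fit, Il6 did not pass either. Il1b, Tnf and Il23a were at 0 counts in 3, 3 and 2 of 6 SKM samples and in 2, 4 and 2 of 5 saline samples, and reached 62.2, 29.4 and 19.5 in SKM samples and 28.8, 15.7 and 14.9 in saline samples.

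**Figure D3:**
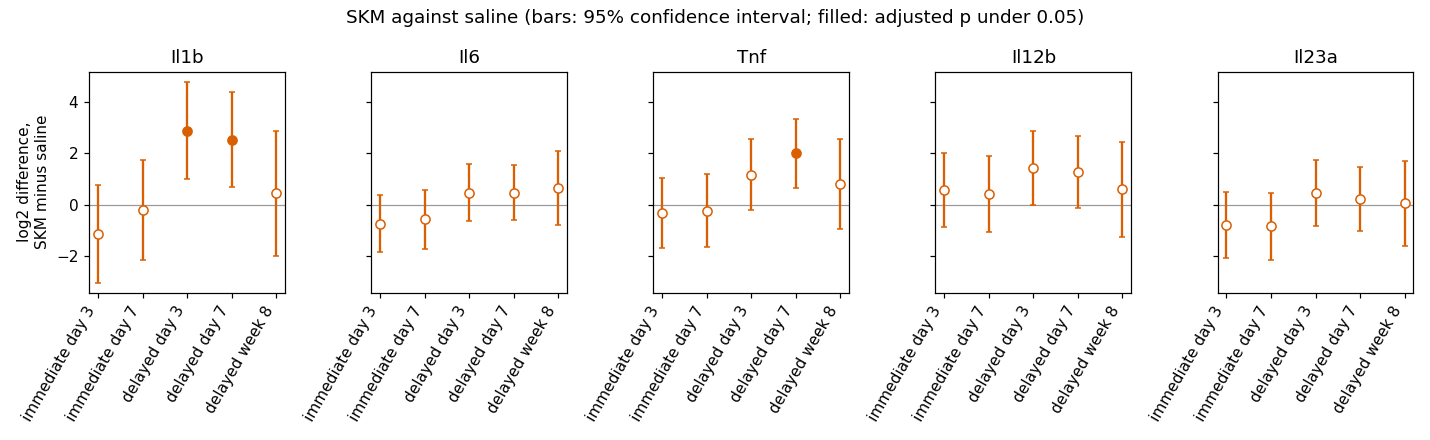
Log2 difference of SKM from saline for the 5 genes at each of 5 times, with 95% confidence intervals of the fit; filled points passed an adjusted p of 0.05. Il1b at delayed day 3 (2.88) and day 7 (2.53) and Tnf at delayed day 7 (2.00) are filled, and the immediate differences of Il1b, Il6, Tnf and Il23a lie below 0 with intervals that include it.

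Of 3 macrophage genes, 1 rose with SKM at delayed day 3 and 2 at day 7, and Arg1 passed at neither (log2 differences 0.78 and 1.30, limma, adjusted p = 0.301 and 0.0915). The summed signal of the 3 was 1832 to 12556 in SKM samples and 775 to 2286 in saline samples at delayed day 3, and 573 to 10286 against 363 to 1162 at day 7. Adgre1, which encodes the macrophage surface protein F4/80, rose by 2.10 at both days (log2; limma, adjusted p = 0.0087 and 0.00882), and Ccr2, the Ccl2 receptor, by 1.16 at day 7 (0.0119). Myd88 rose by 0.85 and 0.70 (log2, limma, adjusted p = 0.0144 and 0.0358), and 1 of the 5 inflammatory mediators, Ccl2, rose at day 7 (1.63, 0.0318). Of the 5 anti-inflammatory and type 2 cytokine genes, 1 rose at day 3 and 2 at day 7. Among them, Tgfb1 rose by 0.89 and 1.03 (log2, limma, adjusted p = 0.0226 and 0.00882). The 2 neutrophil genes summed to 13.4 to 127 with SKM and 18.7 to 63.5 with saline at day 3, and the muscle fibre genes to 531880 to 1200938 against 1205306 to 1574530. At day 7 the muscle fibre sums overlapped (454872 to 1049045 against 610323 to 1237425). Of the 9 muscle fibre genes, 0 were called at either day. The part of these cells in the cytokine differences was not tested.

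Whether the SKM difference depended on the time of injection was tested as a difference of differences, delayed minus immediate. For Il1b it was 4.01 ± 1.34 at day 3 (log2; limma, adjusted p = 0.0865) and 2.72 ± 1.35 at day 7 (0.157), and for Tnf 2.22 ± 0.98 at day 7 (0.113). None of the 5 genes passed at either day in limma, although these 3 had an unadjusted p under 0.05; voom called none, array weights called Il1b (4.51), Il6 (1.67) and Il23a (1.92) at day 3, and 0% of the panel was called at day 3 and 1.49% at day 7. Il1b passed at day 3 without immediate saline replicate 3 (4.45, adjusted p = 0.0482) and with only the compared groups in the fit (0.0132), and Tnf at day 7 without immediate SKM replicate 7 (2.80, 0.0329). No difference between day 7 and day 3 in the SKM effect passed or had an unadjusted p under 0.05 in limma or passed with voom, in either setting (0% of the panel called).

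Compared with day 3, day 7 after delayed injection brought no called change in any of the 5 genes in limma, at an unadjusted p under 0.05 or with voom, while 48.5% of the panel was called lower with SKM and 61.2% with saline on the deposited scale and 0.746% in each after centring. Tnf with saline had a log2 difference of -1.30 ± 0.67 (adjusted p = 0.0857), and passed without replicate number 5 of the delayed groups (-1.64, 0.0455) and with only the compared groups in the fit (0.0273). Array weights called Tnf (-1.38, adjusted p = 0.00354) and Il1b (-1.46, 0.0209) lower with saline, and Il1b (-1.88, 0.0106) and Il12b (-1.35, 0.0358) lower with SKM.

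The delayed groups were also set against injury alone at days 31, 35 and 84. Since the length of the delay is not stated, the age of the injury may differ within these comparisons. Il12b had a median of 19.2 at day 7 with SKM (0.1 to 97.4), against 4.5 at SBI day 35 (0.1 to 14.3), where 3 of 6 samples were at 0 counts. Its log2 difference of 2.20 ± 0.81 passed (limma, adjusted p = 0.0228, with 2.99% of the panel called higher; centred 2.62, 0.0632, with 0.746% called). It was lost without SBI day 35 replicate 1, 3 or 6 (1.86 in each case, adjusted p 0.0729 to 0.0854) and without replicate number 8 of the delayed groups (1.87, 0.0584), with a pseudocount of 10 (1.02, 0.0557) and with only the compared groups in the fit (0.0501). At day 3 with SKM, Il1b and Il6 missed the threshold against SBI day 31 (2.48 ± 1.06 and 1.52 ± 0.62, adjusted p = 0.0815 and 0.0705, with 12.7% of the panel called), and without SBI day 31 replicate 1 both passed (3.19 and 1.90, adjusted p = 0.0224 and 0.0215), as did Il12b (2.17, 0.0391), which also passed without replicate number 5 of the delayed groups (2.11, 0.0491). Without SBI day 31 replicate 2 the Il6 difference was 0.89 (limma, adjusted p = 0.418). It was 0.82 with a pseudocount of 10 (0.311) and passed with a pseudocount of 0.1 (1.96, 0.041). Il1b and Il6 were the genes with an unadjusted p under 0.05 in this comparison, and voom called none. Array weights called Il1b (3.20, adjusted p = 0.000118), Il6 (2.12, 5.04e-05), Il12b (2.42, 0.000712) and Tnf (1.53, 0.0138) higher. In the delayed saline groups and in SKM at week 8, none of the 5 genes passed against its injury day in limma, at an unadjusted p under 0.05 or with voom, with 2.24%, 54.5% and 0% of the panel called for saline at day 3, day 7 and week 8 and 0% for SKM at week 8. Array weights called Il6 higher with saline at day 3 (1.63, adjusted p = 0.00294), and Tnf lower (-1.71, 0.00198) and Il12b higher (1.26, 0.0449) with saline at day 7. In limma without array weights, leaving out SBI day 31 replicate 2 gave 0.42 for Il6 with saline at day 3 (adjusted p = 0.862). Il6 at week 8 with saline (8.01 to 12.6) lay below every SBI day 84 sample (14.3 to 26.6), the only gene of the panel to do so (0.746%). Its log2 difference of -0.91 ± 0.72 did not pass over all groups in limma. With only the compared groups in the fit it passed (adjusted p = 0.0295). Tnf with saline at day 7 passed against SBI day 35 without SBI day 35 replicate 4, which was at 0 counts (adjusted p = 0.0231, against a log2 difference of -1.26 and 0.142 with it).

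The 5 genes shared their patterns to different degrees. Over the 18 group means of centred values, Il1b and Tnf had a Pearson r of 0.92, Tnf and Il23a 0.78, Il1b and Il23a 0.76 and Il1b and Il6 0.72. Il12b had r of 0.19 with Il1b, -0.02 with Tnf and -0.21 with Il23a, its partner in interleukin 23. On the deposited scale, where the shift of whole samples is kept, these 3 values were 0.64, 0.52 and 0.48, and that of Il1b and Tnf was 0.95. Over the deviations of 124 samples from their group means, r was 0.77 for Il1b and Tnf, 0.54 for Il1b and Il6, 0.45 for Il1b and Il12b and 0.13 for Il12b and Il23a. These are descriptions: the values of a sample share its scaling factor and depth, and most counts of Il12b and Il23a are under 20.

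**Figure D4:**
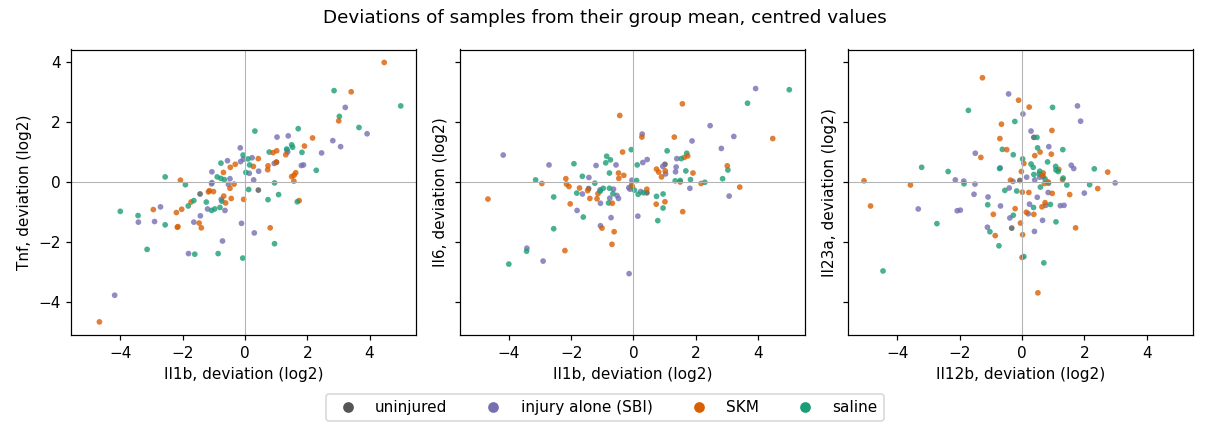
Each point is 1 of 124 samples, plotted by its deviation from its group mean (centred log2 values) for Il1b and Tnf, Il1b and Il6, and Il12b and Il23a. The Il1b and Tnf deviations run together (r = 0.77), those of Il12b and Il23a hardly (r = 0.13).

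The other panel genes with the most similar group means were taken for each gene. Il1b lay closest to Irf5, a transcription factor of inflammatory macrophages (r = 0.97 over 18 group means, 0.63 over deviations of samples), Ccr2 (0.96 and 0.50) and Myd88 (0.96 and 0.76). Tnf lay closest to Ccr2 (0.92 and 0.55) and Ccl2 (0.91 and 0.64). Il6 lay closest to Nrg1, which encodes neuregulin 1 (0.91 and 0.32), Ctsl, the lysosomal protease cathepsin L (0.89 and 0.69), and Nos2 (0.86 and 0.58). Il23a lay closest to the neutrophil chemokine gene Cxcl1 (0.80 and 0.57), Ccl3 (0.78 and 0.46) and Arg1 (0.76 and 0.45). Il12b lay closest to Nkg7, a granule protein gene of natural killer and cytotoxic T cells (0.83 and 0.58), Ccn2, which encodes connective tissue growth factor (0.67 and 0.08), and Erbb2, a receptor tyrosine kinase gene (0.60 and 0.35).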

How the data were processed

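Per the labels' protocols, total RNA of the pubocaudalis went onto an nCounter panel. The deposited table holds a normalised signal per probe and sample, scaled by the authors in a way not given in the sources used here. The authors' deposited workbook holds log2 fold changes, used for names and for the quoted values. All 16829 values above the floor were whole multiples of a step within 0.05 of a count, and 189 stood at the floor of 0.1, so counts were recovered; 1 count was worth 0.563 to 4.281. Of 134 names, 131 came out the same by alphabetical order and by value.

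Groups follow the labels. Values were taken as log2(value + 1), so that changes of low genes are understated. The 18 groups entered a single linear model (R 4.3.3; limma 3.58.1 with moderated variances), with Benjamini-Hochberg adjustment over 134 genes within each comparison and a threshold of 0.05. The script was tested on simulated data. Figures and counts used Python 3.11.15, numpy 2.4.6, pandas 2.3.3 and matplotlib 3.10.9. Alternatives were centring, other pseudocounts, a low-count filter, compared groups only, an intensity trend, array weights, voom weights on recovered counts, each deposited sample counted, a replicate block and leaving out samples. The members and lists were chosen with earlier results of these data known. Named genes are the 5 members, the 3 panel genes most alike to each, and the 2 largest called changes of a list in a comparison; 1 gene that this rule names is not reported here.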

Additional observations from a re-analysis of the deposited data

Results flagged for a closer look

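In groups of 4 to 10 samples, 75 combinations of gene and group were checked for a sample far from the others, and 12 held one. The check flags about 1 in 20 when values are normally distributed. Low counts with a floor need not be, so the 12 cannot be read as more than chance gives. With 4 of 5 samples at 0 counts, as for Tnf in delayed saline at week 8, any other value is flagged. High samples were replicate 1 of SBI day 7 for Il6 (752, the others 19.2 to 76.2) and Il23a (192, the others 15.4 to 25.4), replicate 7 of immediate saline day 7 for Il6 (776, the others 26 to 102), and replicate 4 of delayed saline at week 8 for Tnf (15.7, with the other 4 samples at 0 counts). Low samples were replicate 4 of SBI day 35 for Il1b and Tnf, both at 0 counts and listed at 0.1 (the others 17.3 to 69.4 and 14.4 to 33.6). That sample had a total of 647221 counts, and 1 count was worth 3.583. For Il12b the low samples were replicate 8 of immediate SKM day 3 (15.7, the others 36 to 77.4), replicate 1 of immediate SKM day 7 (0.1, the others 18.1 to 223) and replicate 5 of delayed SKM day 3 (0.1, the others 28.2 to 105). For Il23a they were replicate 6 of immediate SKM day 7 (0.1, the others 7.92 to 40.7) and replicate 6 of immediate saline day 7 (2.6, the others 24.6 to 43.7). For Tnf it was replicate 5 of delayed saline day 3 (2.95, the others 10.2 to 30).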

How the results depend on the processing

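The numbers of member calls were 8 of 35 for injury days against uninjured muscle, 3 of 25 for SKM against saline, 1 of 25 for saline against injury alone, 2 of 25 for SKM against injury alone, 4 of 20 between injury days, 6 of 20 between days after injection, 0 of 20 for differences between SKM effects and 5 of 5 in the F test. Array weights gave 13, 6, 6, 6, 8, 11 and 3 for the first 7 of these. Centring gave 1 for SKM against saline and 0 for saline and for SKM against injury alone. A pseudocount of 0.1 gave 1 for SKM against saline, and a pseudocount of 10 gave 1 for SKM against injury alone. Voom gave 1 for SKM against saline and 2 for saline against injury alone. With only the compared groups in the fit, saline against injury alone gave 2, SKM against injury alone 0, comparisons between injury days 1 and differences between SKM effects 1. Leaving out samples gave 6 to 9 calls against uninjured muscle, 0 to 3 for SKM against saline, 1 to 2 for saline and 1 to 5 for SKM against injury alone, 2 to 5 between injury days, 5 to 6 between days after injection, 0 to 1 for differences between SKM effects and 5 for the F test. No called difference changed sign under any of these settings. The labels do not say whether equal replicate numbers pair the samples. In none of 30 comparisons was every pair's correlation over 0.1, which cannot exclude pairing. Between SBI days 7 and 3, 5 of 6 pairs exceeded 0.1 (median r 0.35), and between SBI days 10 and 7, 0 of 3. With the number as a replicate block in limma, SKM against injury alone gave 1 call, and 3 calls were lost in all. For Il12b they were delayed SKM day 7 against SBI day 35 (adjusted p = 0.0525) and SBI day 3 against day 1 (0.101). For Il1b it was immediate SKM day 7 against day 3 (0.0538). The low-count filter left out no gene, and the planned count model was not run. Counts under 20 limit Tnf, Il12b and Il23a most.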
